A study of Homo sapiens with 12 samples.

Results

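Transcripts that separate the ovarian cancer lines TOV112D and TOV21G, the TOV lines, from IGROV1 and the arrays labelled SKOV3 were examined here. RNA of 4 cell lines was measured on Affymetrix U133 Plus 2.0 arrays, with 3 arrays per line and 12 in all, and all levels are log2 expression values after robust multi-array averaging (RMA). Each gene was represented by its probe set with the highest mean over the 12 arrays. A gene was set apart when its gap, the lower line mean on the high side minus the higher line mean on the low side, was at least 1, which is a 2-fold difference, and limma's adjusted p was under 0.05 in all 4 pairs of a TOV line and another line. Of 19775 genes, 266 (1.35%) were set apart. Of these, 155 (0.784%) were higher in both TOV lines and 111 (0.561%) were lower. The genes were picked by this contrast itself, so their counts and levels are a description of these 12 arrays. The adjusted p-values of single genes and the lack of overlap between sides largely follow from that choice and are no further test.

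All 4 lines were untreated parental lines. TOV21G comes from a clear cell carcinoma and TOV112D, titled T112D on its arrays, from an endometrioid carcinoma, and both were established by the same group, while IGROV1 and SKOV3 were established elsewhere. Per the labels, both TOV lines and IGROV1 grew in RPMI medium and SKOV3 in DMEM, all with fetal calf serum, so the medium of the TOV lines was also that of IGROV1. Each side consists of 2 lines. An exact permutation test over lines has 6 arrangements and cannot give a two-sided p under 0.333, and the adjusted p-values printed here measure the spread between arrays of a line, which the labels do not say came from separate cultures.

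ERBB2, the receptor gene that is amplified in SKOV3 as this line is widely known, did not follow the label. It was at 8.08, 8.10 and 8.24 in the arrays labelled SKOV3, at 8.96, 9.05 and 9.02 in IGROV1, at 8.71, 8.88 and 8.86 in TOV112D and at 8.45, 8.53 and 8.46 in TOV21G, so the arrays with the SKOV3 label were the lowest. The group is therefore named by its label throughout, and gaps against IGROV1 alone are given for some of the genes named. Without it, 570 genes were higher and 662 lower in both TOV lines than in IGROV1 by at least 1, and these include all 266 genes by construction. Arrays of a line correlated at 0.9972 to 0.9976 over all genes. The mean profiles of TOV112D and TOV21G correlated at 0.900, as did those of IGROV1 and the arrays labelled SKOV3, whereas TOV21G and IGROV1 correlated at 0.941, so neither side forms a pair of most similar lines. PAX8, a lineage factor of Mullerian epithelium, split the lines differently, at 10.26 in IGROV1 and 10.04 in TOV21G but only 6.96 in TOV112D and 7.12 on the SKOV3-labelled arrays. Of 16 measured leukocyte markers 0 were set apart, where the share over all genes was 1.35%. The leukocyte gene PTPRC was at 4.58 in TOV112D and at 2.79 to 2.95 in the other lines.

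DKK1 encodes a secreted protein that blocks Wnt signalling by binding the LRP coreceptors together with Kremen proteins, and it is itself a transcriptional target of beta-catenin. HOX genes encode homeodomain transcription factors that lie in clusters and give cells a position along the body axis, and the Mullerian duct, from which the uterus and oviduct form, is patterned by them. Ovarian carcinomas of different histology differ in such lineage genes, among them WT1, a zinc finger factor of the mesothelium and of serous carcinoma.

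The stretches of DNA just upstream of the genes with the largest gaps show what these genes present to a promoter-bound factor or to CpG methylation, which these arrays did not measure. RefSeq promoters on GRCh38.p14 were at hand for 120 of the 155 higher genes and 81 of the 111 lower genes. The 250 bases before the start are printed 5′ to 3′ for the 2 genes of each direction with the largest gaps among those with an entry, with CpG dinucleotides in capitals.
DKK1, chr10:52314031-52314280, plus strand: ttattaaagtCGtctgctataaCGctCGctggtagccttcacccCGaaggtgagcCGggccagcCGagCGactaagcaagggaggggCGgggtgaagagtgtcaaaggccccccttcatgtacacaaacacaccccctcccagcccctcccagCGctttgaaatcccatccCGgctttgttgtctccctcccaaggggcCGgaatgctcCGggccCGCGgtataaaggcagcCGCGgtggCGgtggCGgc
PXDN, chr2:1744516-1744765, minus strand: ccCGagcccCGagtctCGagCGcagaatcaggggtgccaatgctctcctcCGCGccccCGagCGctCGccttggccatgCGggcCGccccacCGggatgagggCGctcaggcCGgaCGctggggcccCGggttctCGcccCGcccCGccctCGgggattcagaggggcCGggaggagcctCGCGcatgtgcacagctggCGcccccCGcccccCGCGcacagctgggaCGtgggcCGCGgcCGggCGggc
LYPLAL1, chr1:219173628-219173877, plus strand: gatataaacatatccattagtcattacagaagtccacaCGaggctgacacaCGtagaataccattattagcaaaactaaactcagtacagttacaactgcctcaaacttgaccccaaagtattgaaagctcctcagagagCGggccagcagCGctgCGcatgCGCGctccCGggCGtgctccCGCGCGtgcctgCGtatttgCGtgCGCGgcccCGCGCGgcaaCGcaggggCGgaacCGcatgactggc
PROM1, chr4:16084024-16084273, minus strand: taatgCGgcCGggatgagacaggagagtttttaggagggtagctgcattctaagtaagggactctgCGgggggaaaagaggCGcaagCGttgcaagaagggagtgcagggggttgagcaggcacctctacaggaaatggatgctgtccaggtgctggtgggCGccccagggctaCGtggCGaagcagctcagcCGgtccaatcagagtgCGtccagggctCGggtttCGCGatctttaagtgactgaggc

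The 4 stretches hold 13 to 32 CpG. The DKK1 stretch holds 18 CpG, a GC content of 62.8% and matches, on either strand, to a TATA box core, a GC box, a TEAD core and a TCF core, whose letters follow. PXDN has 32 CpG at 78.4% GC, LYPLAL1 22 CpG at 56.0% GC and PROM1 13 CpG at 58.8% GC. Over all higher genes with a promoter the median was 18 CpG and 64.2% GC, over the lower genes 19 CpG and 65.2% GC, and over 15382 promoters of all genes tested 18 CpG and 62.4% GC. An observed over expected CpG ratio of at least 0.6 was found in 65.8%, 65.4% and 64.4% of them, so the shares were alike on both sides and in the background. TATAAA, the TATA box core, was in 6.67% of higher, 7.41% of lower and 8.31% of all promoters. GGGCGG, the GC box bound by SP factors, was in 65.8%, 60.5% and 56.3%. CTTTGA, the core read by TCF and LEF factors, was in 7.5%, 3.7% and 9.39%. GGAATG, the core read by TEAD factors, was in 15.0%, 2.47% and 10.3%, which is 18, 2 and 1578 promoters. TGACTCA, the AP-1 site, was in 3 higher and 0 lower promoters (2.5% and 0%) against 3.18% of all. Both strands were searched, and a match in such a window is a description of its letters only.

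DKK1 had the largest gap of all genes. It measured 11.89, 11.89 and 11.92 in TOV112D, 11.86, 11.97 and 12.03 in TOV21G, 2.86, 2.55 and 2.87 in IGROV1 and 3.99, 3.65 and 3.61 in the arrays labelled SKOV3. All 6 TOV arrays were near the top of the scale and all 6 others near its floor, without overlap. The gap was 8.15 and the mean of the TOV lines lay 8.67 ± 0.08 (SE, 3 arrays per line) above that of the others. DKK1 was the marker given for the TOV lines, so these values are a description. Against IGROV1 alone the gap was 9.14. The TOV lines themselves differed little in their means, 11.90 ± 0.02 and 11.95 ± 0.09 (SD, n = 3).

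**Figure D1:**
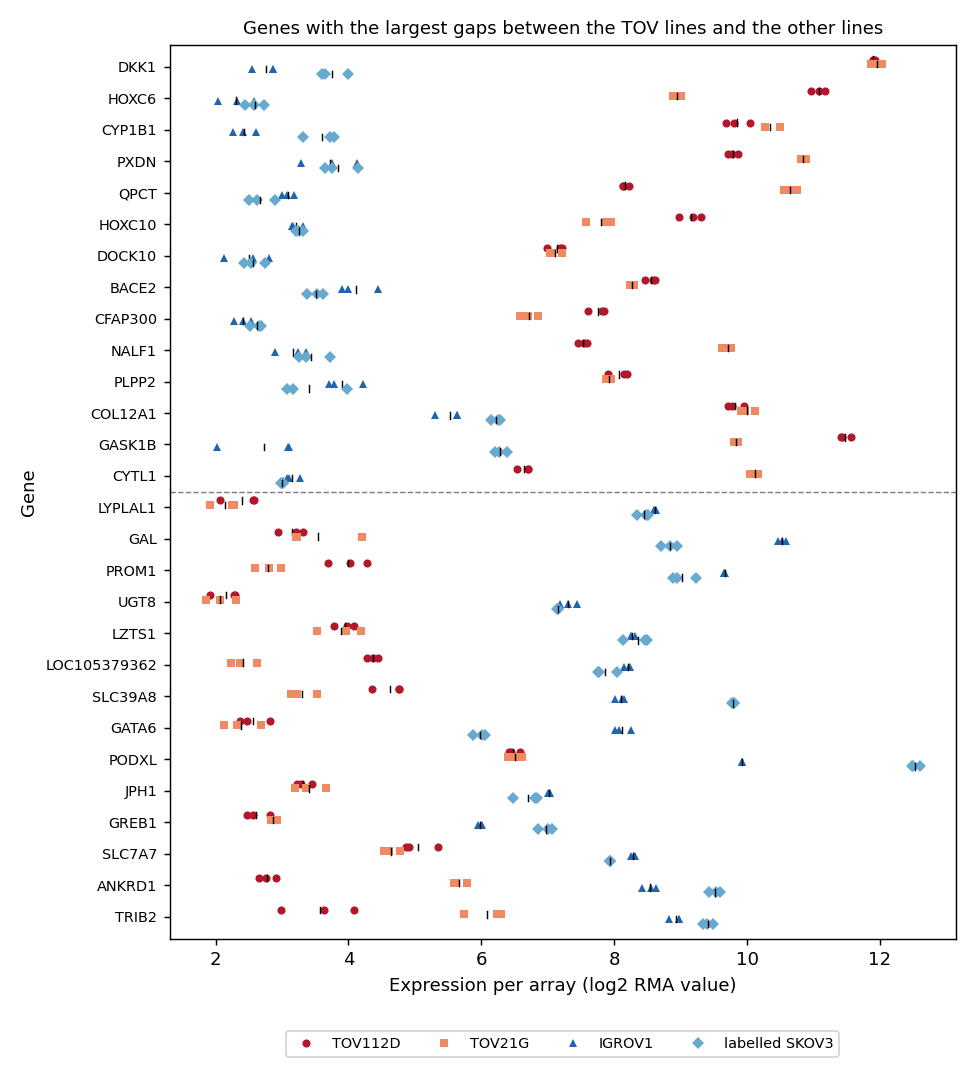
Levels on each array (log2 RMA value, horizontal axis) for the 14 genes with the largest gaps in each direction by the naming rule, higher in the TOV lines above the dashed line and lower below it; each point is 1 array and the short black bars are line means. DKK1 sits near 12 in both TOV lines and below 4 in the others, and LYPLAL1 shows the opposite arrangement.

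Other genes of the Wnt pathway were spread over both directions. Of 45 measured Wnt ligands, receptors and inhibitors DKK1 was the 1 member set apart (2.22%, against 1.35% of all genes). In the side means 8 were higher and 7 lower (33.3%, against 10.2%), with a median difference of 0.00 against 0.01 over all genes. The Wnt inhibitor genes DKK2 and WIF1 were high in a single TOV line. DKK2 was at 8.41 in TOV112D and at 2.15 in TOV21G, against 2.23 and 2.38 in IGROV1 and the arrays labelled SKOV3. WIF1 was at 9.61 in TOV112D and 2.60 in TOV21G, against 2.82 and 3.13. KREMEN1, a coreceptor for DKK1, was at 5.81 and 6.62 in TOV112D and TOV21G and at 5.03 and 4.61 in the others, a gap under 1. Among 26 targets of Wnt and beta-catenin, TNFRSF19 was set apart as higher and LBH as lower (7.69%, against 1.35% of all genes). AXIN2, the usual reporter of the pathway, was at 11.96 in TOV112D, 5.55 in TOV21G, 4.74 in IGROV1 and 9.09 in the arrays labelled SKOV3. AXIN2 thus did not follow the side on which DKK1 was high. TNFRSF19, a receptor of the tumour necrosis factor family, was at 11.78 and 9.03 against 5.50 and 7.59, a gap of 1.44 that was 3.53 against IGROV1 alone and 0.75 with the mean of its probe sets. LBH, a transcription cofactor gene of limb and heart, was at 3.33 and 3.69 against 9.89 and 5.12, a gap of 1.43 that was 6.20 against IGROV1 alone.

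Genes of the HOXC cluster were prominent among the higher genes. HOXC6, a homeodomain factor gene, was at 11.09, 10.97 and 11.17 in TOV112D and at 8.95, 9.01 and 8.88 in TOV21G. IGROV1 had 2.58, 2.03 and 2.33, while the arrays labelled SKOV3 had 2.45, 2.58 and 2.73. All TOV arrays lay above all others, with TOV112D highest, a gap of 6.36 (6.63 without the arrays labelled SKOV3) and a side difference of 7.56 ± 0.09 (limma, adjusted p = 2.6e-14). HOXC10 measured 9.18, 8.98 and 9.31 in TOV112D, 7.87, 7.57 and 7.95 in TOV21G and 3.15 to 3.31 on the other 6 arrays. HOXC9 measured 8.81, 8.64 and 8.91 in TOV112D, 5.98, 5.94 and 5.93 in TOV21G and 3.26 to 3.77 on the others. Both had the order of HOXC6, with gaps of 4.54 and 2.38.

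Of 11 measured genes from HOXC13 to HOXC6 in RefSeq order, 5 were set apart as higher, where the share over all genes was 0.784%. They were HOXC6, HOXC10, HOXC9, HOXC4 and the long noncoding RNA gene HOTAIR. In all 11 the side mean was higher in the TOV lines, in 10 both TOV lines exceeded both others, and in all 11 TOV112D was above TOV21G. HOXC4, whose transcription unit overlaps those of HOXC5 and HOXC6, was at 6.29 and 5.90 against 4.30 and 4.62, a gap of 1.28. HOTAIR, transcribed from between HOXC12 and HOXC11 and known for binding chromatin repressors, was at 6.12 in TOV112D, 3.06 in TOV21G and 2.00 and 1.93 in the others, so its gap of 1.06 rests on a level near the floor in TOV21G. HOXC8 was at 5.80 in TOV112D and at 3.56 to 4.15 in the other lines. Over all 4 HOX clusters 28 genes were measured and 5 (17.9%, against 1.35% of all genes) were set apart as higher and 0 as lower. The fifth was HOXA2 at 6.28 and 6.43 against 3.59 and 3.96. On side means 10 were higher and 0 lower (35.7%, against 10.2% of all genes), with a median difference of 0.79. The same 5 genes were set apart with centred arrays and after quantile normalization. HOXB7, at 8.78 and 8.80 in the TOV lines and 9.47 in IGROV1, was low in the arrays labelled SKOV3 alone at 3.28.

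**Figure D2:**
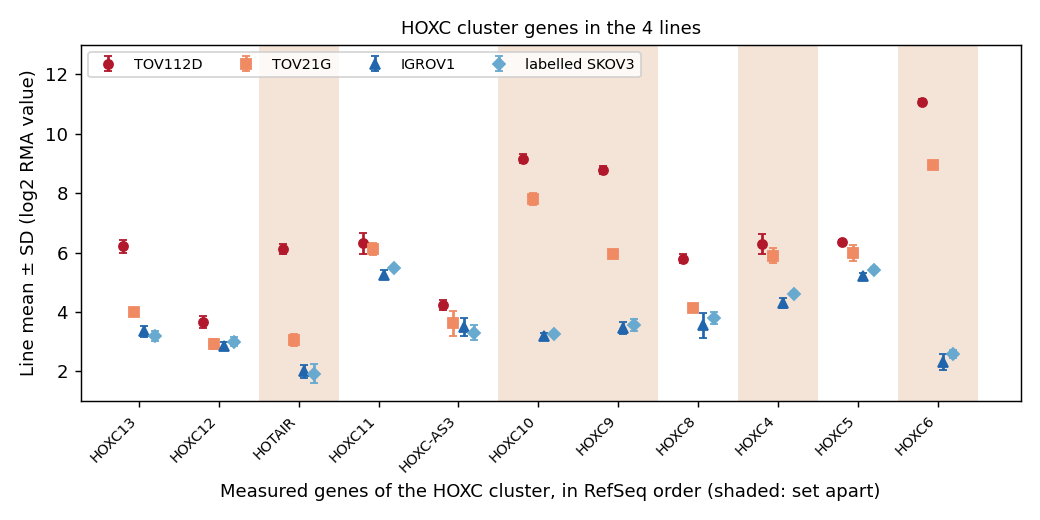
Line means with SD (log2 RMA value, vertical axis, n = 3 arrays per line) of the 11 measured genes of the HOXC cluster in RefSeq order, with genes set apart shaded. HOXC6, HOXC10 and HOXC9 stand highest above the other lines, and TOV112D is above TOV21G in all 11 genes.

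CYP1B1 and PXDN followed DKK1 and HOXC6 in the size of the gap. CYP1B1, a cytochrome P450 that oxidises oestrogens and polycyclic hydrocarbons, was at 10.05, 9.68 and 9.80 in TOV112D and 10.49, 10.27 and 10.27 in TOV21G, against 2.61, 2.42 and 2.27 in IGROV1 and 3.31, 3.78 and 3.73 in the arrays labelled SKOV3. All TOV arrays were at least 9.68 and all others at most 3.78, and the side difference was 7.07 ± 0.10 (limma, adjusted p = 7.5e-14). PXDN, the matrix peroxidase that crosslinks collagen IV, was at 9.72, 9.78 and 9.87 in TOV112D and 10.89, 10.83 and 10.81 in TOV21G, and at 3.29 to 4.14 on the other arrays. COL12A1, a collagen that binds to fibrils, was at 9.78, 9.72 and 9.95 and at 10.12, 9.91 and 9.97 in the TOV lines, against 5.30 to 6.28 on the others. It was the 1 of 35 collagen and matrix genes set apart (2.86%, against 1.35% of all genes). On side means 8 of the list were higher and 10 lower (51.4%, against 10.2%), while COL3A1 was at 13.27 in TOV112D and at most 2.77 elsewhere. QPCT, the glutaminyl cyclase that caps peptides with pyroglutamate, was at 8.16 and 10.65 against 3.09 and 2.67. BACE2, an aspartic protease related to beta-secretase, was at 8.56 and 8.28 against 4.12 and 3.51. CTHRC1, a secreted collagen triple helix protein, was at 5.96 and 6.54 against 2.66 and 2.58. GASK1B, a Golgi-associated kinase-like protein, was at 11.47 and 9.83 against 2.74 and 6.28, so its gap of 3.55 became 7.10 without the arrays labelled SKOV3. GALNT14, which starts O-glycan chains, was at 9.98 and 10.45 against 6.52 and 4.66, and CYTL1, a small secreted protein, at 6.64 and 10.12 against 3.15 in IGROV1.

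Genes with roles in signalling and gene regulation were found on both sides, and those of the higher side included DOCK10, NFIA and PTGER4. DOCK10, a guanine nucleotide exchange factor, was at 6.99, 7.19 and 7.22 in TOV112D, 7.03, 7.06 and 7.22 in TOV21G, 2.81, 2.13 and 2.57 in IGROV1 and 2.43, 2.54 and 2.74 in the arrays labelled SKOV3, so the 2 lines of each side overlapped while the sides did not. Its side difference was 4.58 ± 0.10 (limma, adjusted p = 3.7e-12). NFIA, a nuclear factor I gene, was at 8.55 and 7.30 against 3.97 and 3.90, with SDs of 0.66 and 0.67 (n = 3) in the low lines. PTGER4, a prostaglandin E receptor, was at 10.28 in TOV112D and 6.84 in TOV21G, against 3.36 and 2.62. ARNT2, a partner of bHLH-PAS factors, was at 7.94 and 7.62 against 4.31 and 3.18. LRRK2, a kinase known from Parkinson disease, was at 5.17 and 5.14 against 2.50 and 2.76. NRG1, a ligand of ERBB receptors, was at 9.10 and 8.74 against 4.54 and 7.38, and its gap of 1.36 became 4.20 without the arrays labelled SKOV3 and 0.83 with the mean of its probe sets. LRIG3, of a family that restrains ERBB receptors, was set apart in the other direction, at 3.53 and 3.02 against 6.34 and 7.16. These were the 2 of 15 members of the EGF receptor list set apart (13.3%, against 1.35% of all genes). On side means 4 of the list were higher and 5 lower (60.0%, against 10.2%).

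The TGF-beta and BMP pathway had members on both sides. TGFB2, a TGF-beta ligand, was at 10.00, 9.78 and 9.72 in TOV112D, 6.21, 5.96 and 6.10 in TOV21G, 3.48, 3.64 and 3.26 in IGROV1 and 3.86, 4.01 and 4.22 in the arrays labelled SKOV3, so on this probe set TOV112D was the highest line and TOV21G the second. Other probe sets of TGFB2 had gaps of 2.58, 0.81, 0.06 and -0.05. On the one with 0.06, TOV21G was at 2.12 against 2.04 and 2.06, with TOV112D at 4.70. INHBA, the activin A subunit, was at 8.66 and 6.62 against 3.55 and 5.28, a gap of 1.34 that was 3.07 against IGROV1 alone and 0.89 with the mean of its probe sets. ID3, a target of BMP signalling that inhibits bHLH factors, was at 12.03 and 12.04 against 9.79 and 10.92, a gap of 1.11 that was 2.24 against IGROV1 alone and 0.96 with centred arrays. The ligands BMP2 and BMP6 went the other way, BMP2 at 4.16 and 3.72 against 6.50 and 5.19 and BMP6 at 4.19 and 4.46 against 7.30 and 5.61. Their gaps of 1.03 and 1.15 were 2.34 and 2.84 against IGROV1 alone, and became 0.96 and 0.46 when their probe sets were averaged, and that of BMP2 was 0.92 without replicate 3 of the arrays labelled SKOV3 and 0.94 without replicate 2 of TOV112D. In all, 3 of 37 members were set apart as higher and 2 as lower (13.5%, against 1.35% of all genes). On side means 9 were higher and 10 lower (51.4%, against 10.2%), with a median difference of 0.06.

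Among the lower genes LYPLAL1 had the largest gap. LYPLAL1, a lysophospholipase-like hydrolase, was at 2.58, 2.56 and 2.07 in TOV112D, 2.25, 2.28 and 1.91 in TOV21G, 8.60, 8.60 and 8.63 in IGROV1 and 8.48, 8.35 and 8.51 in the arrays labelled SKOV3. All TOV arrays were at the floor of the scale, and the side difference was -6.25 ± 0.09 (limma, adjusted p = 1.4e-13), with a gap of 6.04. GAL, the neuropeptide galanin, was at 3.21, 2.94 and 3.32 in TOV112D and 3.22, 4.21 and 3.21 in TOV21G, against 10.46, 10.53 and 10.59 in IGROV1 and 8.95, 8.71 and 8.84 in the arrays labelled SKOV3. Here too the sides did not overlap, and a single TOV21G array was at 4.21. PROM1, the membrane protein prominin also known as CD133, was at 3.69, 4.28 and 4.03 and at 2.60, 2.99 and 2.80 in the TOV lines, against 9.67, 9.66 and 9.66 in IGROV1 and 8.88, 8.94 and 9.23 in the arrays labelled SKOV3. UGT8, the transferase that makes galactosylceramide, was at 1.85 to 2.31 on the TOV arrays, at 7.18, 7.31 and 7.44 in IGROV1, with the arrays labelled SKOV3 at 7.16, 7.14 and 7.16. LZTS1, a leucine zipper protein described as a tumour suppressor, was at 3.53 to 4.19 against 8.14 to 8.49. For UGT8 and LZTS1 the lines of a side were close to each other, with side differences of -5.11 ± 0.09 and -4.40 ± 0.11.

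**Figure D3:**
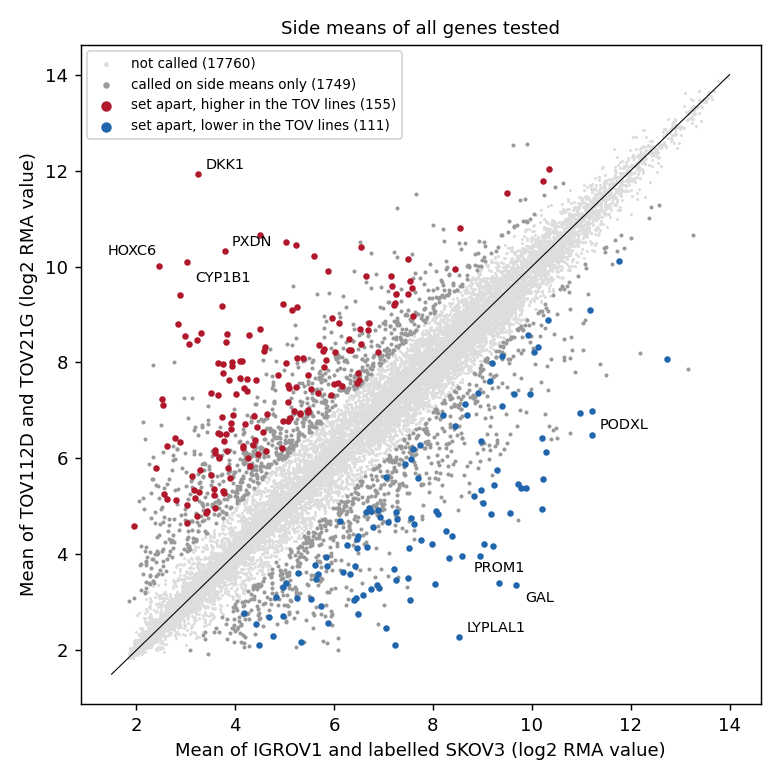
Mean of TOV112D and TOV21G (vertical axis) against the mean of IGROV1 and the arrays labelled SKOV3 (horizontal axis), both log2 RMA values, with 1 point per gene; the line marks equal means. The 155 genes set apart as higher and 111 as lower lie away from the line, among a larger number of genes called on side means alone.

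PODXL, a sialomucin of podocytes and of embryonic stem cells, was at 6.41, 6.58 and 6.45 in TOV112D, 6.61, 6.40 and 6.49 in TOV21G, 9.92 on each IGROV1 array and 12.48, 12.60 and 12.50 in the arrays labelled SKOV3. The TOV lines shared a level while the other lines did not. SLC39A8, a zinc and manganese importer, was at 4.62 and 3.30 against 8.10 and 9.79, and SLC7A7, an amino acid transporter subunit, at 5.04 and 4.64 against 8.29 and 7.93. ANKRD1, a muscle ankyrin repeat gene induced by YAP, was at 2.77 and 5.66 against 8.54 and 9.52. Its list of 23 YAP and TEAD genes had ANKRD1 set apart as lower and TGFB2 as higher (8.7%, against 1.35% of all genes). The YAP target CCN2 was at 9.06 and 10.09 in the TOV lines, 2.80 in IGROV1 and 11.08 in the arrays labelled SKOV3. GREB1, an oestrogen-induced gene, was at 2.62 and 2.87 against 5.98 and 6.98. TRIB2, a pseudokinase, was at 3.57 and 6.09 against 8.93 and 9.41, and JPH1, a junctophilin, at 3.32 and 3.41 against 7.02 and 6.71. FABP3, a fatty acid binding protein, was at 4.26 and 4.18 against 8.93 and 7.02.

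Lineage factors were among the lower genes. GATA6, a zinc finger factor of endoderm and of ovarian surface cells, was at 2.48, 2.82 and 2.37 in TOV112D, 2.13, 2.33 and 2.69 in TOV21G, 8.01, 8.08 and 8.26 in IGROV1 and 6.05, 5.88 and 6.01 in the arrays labelled SKOV3. WT1 was at 2.99, 3.74 and 3.12 in TOV112D, 5.27, 5.71 and 5.49 in TOV21G, 7.86, 7.82 and 7.99 in IGROV1 and 8.88, 8.89 and 8.89 in the arrays labelled SKOV3. The gap of GATA6 was 3.42, and 5.56 against IGROV1 alone. Neither gene overlapped between the sides, although WT1 in TOV21G lay midway. WT1 was the 1 of 23 Mullerian and serous carcinoma markers set apart (4.35%, against 1.35% of all genes). On side means 39.1% of these markers were called, against 10.2% of all genes. Another 7 of these were lower and 1 higher on side means, and SOX17 for example was high in IGROV1 alone, at 8.81 against 2.61 to 2.92. SOX3, an X-linked factor of neural progenitors, was at 2.99 and 2.85 against 5.65 and 5.80, and SOX13 at 5.98 and 5.99 against 7.57 and 7.56. Probe sets of POU5F1P3, POU5F1P4 and POU5F1B, near-identical copies of the pluripotency gene POU5F1, were at 4.35 to 6.49 in the TOV lines and 9.43 to 11.13 in the others. They end in _x_at, which marks probes that match several transcripts, so which copy was measured is uncertain. POU5F1 itself was not among the genes measured. Of the 27 pluripotency genes that were, 0 were set apart. On side means 11 were lower and 1 higher (44.4%, against 10.2% of all genes). NANOG, LIN28A and TRIM71 of that list had means of 9.12, 12.16 and 11.83 for the arrays labelled SKOV3 and at most 7.15 for any other line.

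Epithelial junction and keratin genes that passed the test were lower in the TOV lines. Of 35 measured, 3 were set apart as lower, where the share over all genes was 0.561%, and 0 as higher. On side means 16 were lower, against 4.72% of all genes, and 0 higher, with a median difference of -0.89 against 0.01 over all genes. The median level of the list was 8.51 in IGROV1, 6.06 in TOV21G, 4.35 in TOV112D and 4.81 on the SKOV3-labelled arrays, so IGROV1 was highest and TOV21G lay above the arrays labelled SKOV3. DSP, the desmosomal plaque protein desmoplakin, was at 2.80, 2.88 and 2.79 in TOV112D, 7.85, 8.01 and 7.91 in TOV21G, 10.35, 10.54 and 10.33 in IGROV1 and 9.28, 9.40 and 9.37 in the arrays labelled SKOV3. DSC2, a desmosomal cadherin, had the TOV lines in the other order, at 5.38 in TOV112D and 2.88 in TOV21G, against 6.93 and 8.12. KRT8, the keratin of simple epithelia, was at 5.29 and 8.61 against 10.21 and 11.75, on a probe set ending in _x_at and the only one for this gene here. CDH1 and KRT19 were high in IGROV1 alone. CDH1, encoding E-cadherin, was at 10.93 in IGROV1 and at 2.95 in the arrays labelled SKOV3, against 3.20 and 4.20 in TOV112D and TOV21G, and KRT19 was at 11.84 in IGROV1 and 2.76 to 4.05 in the others. EPCAM was at 12.17 in IGROV1, 3.41 in the arrays labelled SKOV3, 6.29 in TOV112D and 7.79 in TOV21G. Without the arrays labelled SKOV3 the comparison is with IGROV1, the line in which CDH1, KRT19 and EPCAM were high.

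Mesenchymal transition genes were called in both directions. Of 24 measured, 0 were set apart as higher and 2 as lower (8.33%, against 1.35% of all genes). On side means 4 were higher and 8 lower (12 of 24, against 10.2% of all genes), with a median of -0.26. The lower pair were S100A4, a calcium-binding protein gene at 4.88 in TOV112D and 11.25 in TOV21G against 13.12 and 12.37, and FOSL1, an AP-1 factor at 6.37 and 6.04 against 7.82 and 7.40. The FOSL1 gap of 1.02 was 0.93 without replicate 1 of TOV112D and 0.97 without replicate 1 of the arrays labelled SKOV3. TWIST1, a factor of mesenchymal transition, was highest in TOV112D at 12.08, but TOV21G at 7.12 lay below the arrays labelled SKOV3 at 7.82. Of 20 stromal markers S100A4 alone was set apart, and of 15 endothelial markers CDH5 alone, where the share over all genes was 1.35%. CDH5, a cadherin, was at 2.97 and 3.22 against 4.67 and 5.81. On side means 5 of the stromal markers were higher and 4 lower, so this list was called in both directions. Of the endothelial markers 1 was higher and 4 were lower on side means, where 10.2% of all genes were called. PECAM1, a defining endothelial gene, was at 4.97 to 6.33 in the line means and VWF at 4.31 to 4.41.

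Neural and axon guidance genes were set apart in 5 of 40 cases (12.5%, against 1.35% of all genes). SEMA3A, a secreted semaphorin, was higher at 8.27 and 7.70 against 3.88 and 6.18, a gap of 1.52 that was 3.82 against IGROV1 alone. The plexins, receptors for semaphorins, had 2 lower members, with PLXNA2 at 4.09 and 4.18 against 5.35 and 7.59 and PLXND1 at 6.58 and 8.09 against 9.42 and 9.87. The gaps of PLXNA2 and PLXND1, 1.17 and 1.33, became 0.69 and 0.95 when their probe sets were averaged, and that of PLXNA2 was 0.89 without replicate 2 of TOV21G. NRCAM, a neuronal adhesion molecule, was at 3.04 in TOV112D, 7.40 in TOV21G and 8.77 and 8.90 in the others, and SOX3 was the other lower member. On side means 12 of the list were higher and 9 lower (52.5%, against 10.2%), with a median of 0.04.

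Further lists had 1 member set apart or 0, where the share over all genes was 1.35%. Of 28 aldehyde dehydrogenase and retinoid genes it was ALDH1A1, a retinaldehyde dehydrogenase at 12.30 in TOV112D, 8.72 in TOV21G, 7.51 in IGROV1 and 2.53 in the arrays labelled SKOV3, for which all 4 lines differed. Of 32 glycolysis and hypoxia genes it was PFKP, a phosphofructokinase at 11.09 and 11.97 against 9.98 and 9.03, whose gap of 1.11 was 0.67 with the mean of its probe sets. Of 34 interferon-stimulated genes it was BST2, the virus-tethering protein tetherin, at 3.38 and 6.36 against 10.21 and 8.91. Of 32 FGF, PDGF and VEGF genes it was PDGFA, at 4.60 and 4.55 against 7.94 and 5.64, a gap of 1.04 that was 3.35 against IGROV1 alone and 0.98 without replicate 2 of the arrays labelled SKOV3. Among 20 claudins it was CLDN11, at 12.07 in TOV112D and 5.54 in TOV21G against 2.90 and 2.78, and its gap of 2.64 was 0.92 with the mean of its probe sets. Among 23 cancer testis genes it was TEX15, at 9.06 and 7.43 against 3.16 and 6.02, with a gap of 1.41 that was 4.27 against IGROV1 alone. Of 26 NF-kappaB cytokine and chemokine genes 0 were set apart, although 8 were higher on side means and 0 lower (30.8%, against 10.2% of all genes). IL6 and CXCL1 of that list were at 11.05 and 11.84 in TOV21G but at 4.24 and 4.36 in TOV112D, below IGROV1 at 7.38 and 7.99. The lists of integrins, matrix proteases, Notch genes, MHC class I presentation, p53 targets, NRF2 and glutathione genes, cholesterol synthesis, clear cell carcinoma markers, imprinted genes, DNA repair, SWI/SNF subunits, cell cycle, apoptosis and drug transport also had 0 set apart. For lists this short, 0 is close to the share over all genes. On side means these lists had from 12.5% (SWI/SNF subunits) to 40.0% (clear cell carcinoma markers) of members called, against 10.2% of all genes.

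**Figure D4:**
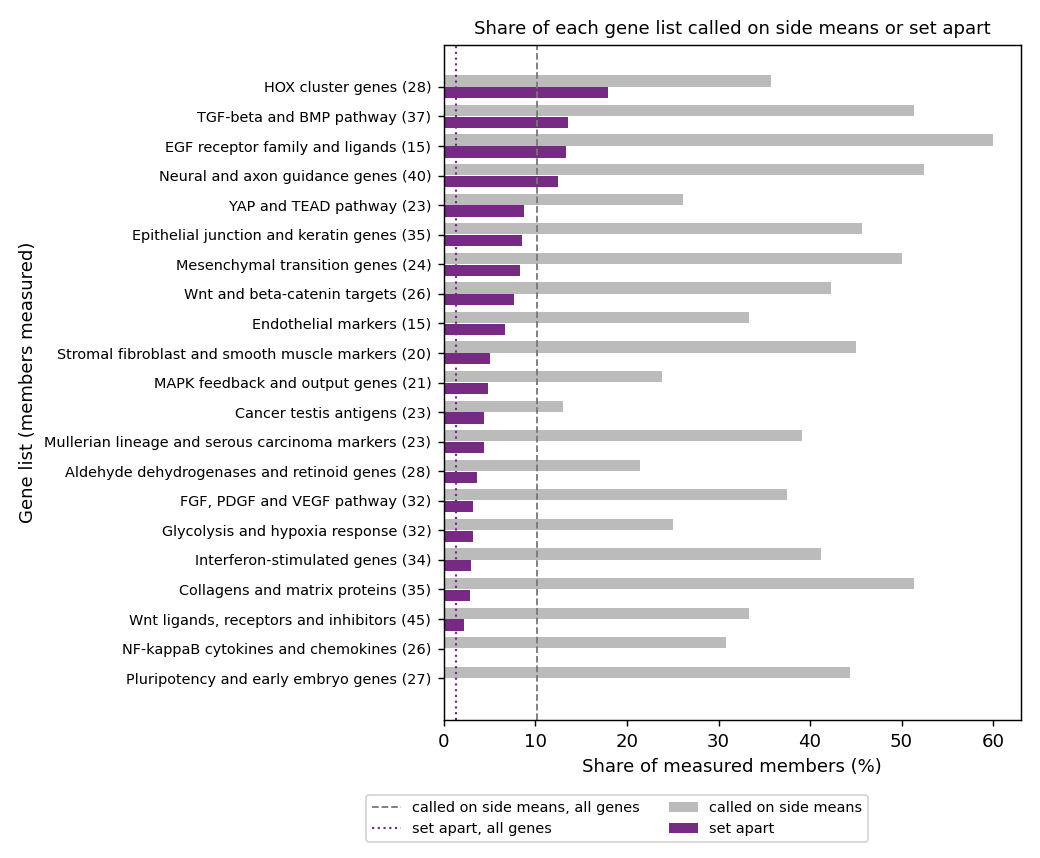
Share of the measured members of 21 gene lists (percent, horizontal axis) that were set apart in either direction (purple) or called on side means (grey), with the same shares over all 19775 genes as vertical lines at 1.35% and 10.2%. HOX cluster genes have the highest share set apart, 17.9%, and for pluripotency and NF-kappaB genes the purple bar is at 0.

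Averaging the lines of a side called far more genes than separated them. With the side means compared (limma with an adjusted p below 0.05, and means at least 1 apart), 1081 genes (5.47%) were higher and 934 (4.72%) lower in the TOV lines, 2015 (10.2%) in all. With centred arrays these were 955 and 1069, so that lower genes were then the more frequent, and with averaged probe sets 821 and 722. Of the 1081 and 934 genes, 155 and 111 were set apart. In 507 of the higher and 529 of the lower genes the line means of the sides overlapped, as for TWIST1 and WIF1. In 661 of the higher and 452 of the lower genes TOV112D and TOV21G differed from each other by at least 1. The rule for setting genes apart makes their side means differ by at least 1 as well, so the call of all 266 on side means follows from the selection. Their largest adjusted p in any pair of lines was 0.00054 among the higher and 0.0014, for LBH, among the lower genes.

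The sizes were alike in both directions. The median gap was 1.48 for higher and 1.49 for lower genes, and 47 and 34 genes had a gap of at least 2, 25 and 14 one of at least 3. The median difference between side means was 2.46 and 2.61 in size. Within the sides the lines often differed as well. In 69 of 155 higher and 45 of 111 lower genes both sides held their lines within 1 of each other. Among higher genes TOV112D exceeded TOV21G by at least 1 in 36 and fell short of it in 19, and among lower genes in 8 and 20. Among genes with a gap of at least 2, those with the most even levels within sides were DOCK10, GSTT2, IFT27, LRRK2 and SLC38A5 among the higher, and UGT8, SOX3, LZTS1, SEL1L3 and TMEM108 among the lower. SEL1L3 was at 7.17 and 7.03 against 9.40 and 9.38, and SLC38A5, a glutamine transporter, at 7.52 and 7.77 against 4.29 and 4.19. The line that set the gap was TOV21G in 87 and TOV112D in 68 of the higher genes on the high side, and the arrays labelled SKOV3 in 84 and IGROV1 in 71 on the low side. In 10 higher and 12 lower genes both low lines were under 3, where RMA values lie at their floor and a difference is not a measured ratio. Both low lines were below the median of all values, 4.44, in 66 higher genes, DKK1 among them, and in 42 lower genes. The sizes of such gaps are therefore less certain too. At the threshold, CCDC102A and FXYD6 (gaps of 1.01) were just inside among the higher genes and BBX (1.01) and CLU, which met it within rounding, among the lower, while HS3ST3A1 and TMEM101 (0.99 and 0.98) were just outside among the lower, and FCGRT and ZMYND11 missed it among the higher by less than the rounding of 2 decimals.

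Other probe sets of the same genes, which the selection did not use, give a further reading on the same arrays. Of 78 higher genes with other probe sets, 39 had at least 1 more probe set with a gap of at least 1 in the same direction, and of 64 such lower genes 33 did. Among the brighter of these probe sets, with some line mean at or above 4.44, the median of the table, these were 57 of 103 and 39 of 77. For CYP1B1 other probe sets had gaps of 6.72 and 5.89, for PXDN 5.74, for COL12A1 one had 2.94, for BACE2 3.36 and 1.95, for TRIB2 3.13, for LYPLAL1 3.13, and for UGT8 2.55. Dim probe sets of the same genes had small gaps, with 0.34 for CYP1B1 and 0.28 and 0.81 for COL12A1. The other probe sets of GAL, GATA6, PTGER4, DOCK10 and JPH1 were dim too, with gaps of -0.05, -0.31, -0.01, 0.27 and -0.12, and both of GREB1 were dim with gaps of -0.02 and -0.10. LZTS1 had a second probe set with a gap of 2.33 and others near 0. WT1 had one at 0.95. Of NFIA's other probe sets 3 had gaps of 2.59 to 3.87 and 3 dim ones had gaps under 1. A gap with the opposite sign was found in 3 probe sets of higher and 2 of lower genes, and 0 of these reached 1. DKK1, HOXC6, HOXC10, HOXC9, QPCT, PROM1 and PODXL had a single probe set here.

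Most genes set apart had no neighbour set apart in the same direction. In RefSeq order among the measured genes, 8 pairs of neighbours went the same way and there was no longer run. The shares over all genes were 0.784% higher and 0.561% lower, and whether 8 pairs exceed what these shares give was not tested. HOTAIR, HOXC4 and HOXC6 were in no pair, as genes not set apart lie between them in the HOXC cluster. The higher pairs were HOXC10 with HOXC9, MICA with MICA-AS1, MACROH2A2 with AIFM2, IL27RA with PALM3, and CALCRL with TFPI, and the lower pairs were SOX3 with HAPSTR2, DSP with DSP-AS1, and ANKRD18A with FAM201A. MICA, a ligand of the NKG2D receptor on natural killer cells, was at 9.99 and 9.21 against 8.07 and 6.29. TFPI, the inhibitor of tissue factor, was at 11.25 and 9.63 against 3.07 and 7.38. Of 1620 long noncoding RNA genes 7 were set apart as higher and 1 as lower, which is 0.494% against 1.35% of all genes, and 471 of the 1620 had a line mean that reached the median of the table. Among them was LINC02381 at 8.71 and 7.36 against 4.14 and 4.04.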

How the data were processed

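Per the labels' protocols, Trizol and a spin column were used to isolate total RNA, and biotinylated cRNA was hybridised. The authors deposited a table of log2 expression values of 54675 probe sets on 12 arrays, for which the submitters' processing notes name affy and RMA, with the version of affy not given in the sources used here. RMA equalises the arrays' distributions, so differences in total RNA cannot be seen, and the number of arrays limits the precision. The lowest value was 1.478, the highest 13.999 and the median 4.44, and no transformation was added.

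The platform annotation listed 42898 probe sets, 41097 of them with 1 gene and 1801 with several. After 6 control probe sets were left out, 41091 probe sets gave 19775 genes, 1140 of them on a probe set ending in _x_at, and 19735 symbols were in the RefSeq table of GRCh38.p14. Of the RefSeq promoter table the 250 bases before the start were used and the 50 after it were not.

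limma 3.58.1 in R 4.3.3 estimated a mean for each line from the 12 arrays together, leaving 8 residual degrees of freedom, with contrasts for the side means and the 4 pairs across sides, eBayes and Benjamini-Hochberg adjustment over all genes within each contrast. On simulated data the rule for setting genes apart recovered 50 of 50 changed genes at log2 sizes 1.5, 2, 3 and 4. It called 0 unchanged genes of the 19775 simulated. The simulated lines had the same mean for every unchanged gene, unlike the real lines. The simulation therefore gives no error rate for differences between lines. No 2 arrays were identical. Replicate numbers did not pair the arrays: residuals of same-numbered arrays correlated at -0.10 to 0.13 over 18 pairs, and those of other numbers at -0.13 to 0.13.

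Genes were named by these rules: for each direction the 20 largest gaps among genes whose highest line mean reached the median and whose probe set does not end in _x_at, up to 6 genes set apart per gene list and up to 4 per symbol family, DKK1, ERBB2, the 2 genes on each side of the threshold, and the 5 genes with the most even levels among those with a gap of at least 2. Other genes named for comparison, neighbours among them, were chosen after their values were seen. The members and the lists were chosen with earlier results of these data known, so the lists' counts are not independent evidence. Alternatives were averaged probe sets per gene, no _x_at probe sets, no dim genes, centred arrays, quantile normalization, a trended and robust prior, the replicate block, each array or line left out, and a minimum gap of 2.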

Additional observations from a re-analysis of the deposited data

How the results depend on the processing

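Of the 266 genes, 0 met the rule in the opposite direction under any alternative in which they were measured (258 without _x_at probe sets and 265 without dim genes). Genes with a gap of at least 1 could hardly do so while the same probe set was used, so this 0 carries little information. With averaged probe sets 127 and 85 genes were set apart (118 and 80 of the same genes), with centred arrays 133 and 135, after quantile normalization 147 and 117, without _x_at probe sets 157 and 103, and without dim genes 155 and 110. With the trended and robust prior, and with the replicate number as a block, it was 155 and 111, and the replicate block gave 1081 and 935 on side means. Leaving out single arrays gave 151 to 167 and 108 to 113 set apart, 1063 to 1100 and 928 to 944 on side means, 61 to 65 members of the gene lists (62 with all arrays), and a DKK1 gap of 8.08 to 8.27. Leaving out a line admits more genes by construction. It gave 570 and 662 genes and 290 list members against IGROV1 alone, with a DKK1 gap of 9.14, and 708 and 753 genes and 341 list members against the arrays labelled SKOV3 alone. With TOV21G as the only TOV line it was 680 and 336 genes and 230 list members, and with TOV112D 814 and 632 genes, 360 list members and 1511 lower on side means. At a minimum gap of 2, 47 and 34 genes and 20 list members were set apart, and 330 and 306 genes were called on side means. The 98 named genes include ERBB2 and the genes just outside the threshold, which were not set apart. Of the others, 17 fell under the minimum gap with the mean of probe sets, 3 with centred arrays and 4 after quantile normalization. HS3ST3A1 and TMEM101 were newly set apart with centred arrays, and both of them and ZMYND11 after quantile normalization. Levels near the floor of the RMA scale limit every gap against a line at that floor, and with 2 lines a side a difference between TOV and other lines cannot be told apart from a difference between these 4 lines.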

Other observations

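Some further genes set apart are described here. CFAP300, IFT27 and SLC38A5 were named by the rules above, and the others were picked after their values were seen. No count given here stands behind those others. CFAP300, a factor for assembling dynein arms, was at 7.76 and 6.71 in TOV112D and TOV21G against 2.41 and 2.62 in IGROV1 and the arrays labelled SKOV3. IFT27, a subunit of intraflagellar transport, was at 7.24 and 7.43 against 4.08 and 3.97, with single IGROV1 arrays from 3.53 to 4.80. CDKL1, a kinase of the cilium, was at 5.57 and 6.77 against 3.62 and 3.57.

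CD70, a ligand of the tumour necrosis factor family, was at 8.23 and 8.24 against 5.91 and 5.65, NCR3LG1, a ligand of natural killer cells, at 8.85 and 7.20 against 3.10 and 5.16, and IFNGR2, an interferon gamma receptor chain, at 9.95 in both TOV lines against 8.76 and 8.11. On the lower side, the cytokine receptor IL6R was at 4.23 and 5.12 against 7.86 and 6.33, and CEBPB, a factor of the acute phase response, at 9.21 and 8.98 against 11.99 and 10.35. Genes of amino acid transport and metabolism went both ways. SLC7A5, a transporter of large neutral amino acids, was lower at 10.33 and 9.90 against 11.92 and 11.61, ASS1, which makes argininosuccinate, at 5.83 and 4.29 against 10.40 and 7.62, and PSPH, the last enzyme of serine synthesis, at 8.53 and 8.62 against 10.10 and 9.74. SLC38A5, a glutamine transporter, was higher with a gap of 3.24, and AMDHD1, an enzyme of histidine breakdown, with one of 1.52. ATF3, a stress-induced factor, was at 4.54 and 5.21 against 6.67 and 7.82. The peptide hormone precursor APELA was at 2.09 and 2.11 against 4.62 and 4.35, and COMP, a cartilage matrix protein, at 5.80 in TOV112D and 12.55 in TOV21G against 3.61 and 3.84. As genes set apart, all of these had an adjusted p under 0.05 in each of the 4 pairs of the same limma fit. The selection required this, so it is no further test of them.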
